A study of Mus musculus with 33 samples.

Results

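Neuropeptide genes were followed in cultured mouse retinal progenitor cells driven towards cones or rods. The set held 8 protein-coding genes, Scg2, Npy, Sst, Penk, Tac1, Cartpt, Adcyap1 and Gal, of the 47729 genes in the count tables. Rows were taken by gene symbol in all 33 libraries, and each symbol matched 1 gene. Gene positions are those of the authors' files, on build GRCm38.

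The cells were C57BL/6J retinal progenitors, the dividing cells of the developing retina, from retina at embryonic day 14. At day 0 there were untreated cells, cone primed cells, which carried the cone treatment with COCO protein, and rod primed cells, which carried the rod treatment with taurine and retinoic acid. Cone and rod induced cells were taken at days 5, 12, 21 and 35. Each of the 11 groups had 3 libraries. COCO protein blocks BMP, TGF-beta and Wnt ligands outside the cell, and retinoic acid is a ligand of nuclear receptors. The labels do not say whether libraries of a group came from separate cultures or animals, so p-values measure the spread between these libraries. They name no sequencing batch, and the duration of each treatment is not given in the sources used here.

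Neuropeptides are made as longer precursors, cut by prohormone convertases in the secretory pathway, trimmed, often amidated, and released from dense-core vesicles onto G protein-coupled receptors. In the mature retina most are products of sparse amacrine cell types, the inhibitory interneurons of the inner retina, and some are made by ganglion cells, which send their axons to the brain. In bulk RNA, fewer cells that make a peptide and less RNA in each such cell cannot be told apart.

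The genes were selected on measured values of these libraries, among them low Npy after rod priming and high Sst in rod induced cells at day 35. Rod primed against untreated, cone primed against rod primed, and cone against rod at day 35 are therefore described with library values, model estimates and no test. For the same reason, changes of Npy from priming to a later day, and of Sst from priming to rod day 35, are given without a test. Npy in cone primed against untreated cells is likewise a description. Other comparisons were tested by 1 edgeR model over all 33 libraries, in which a gene was called at an adjusted p under 0.05 over the 18150 genes tested. All 8 genes passed the filter on low counts, but Tac1 and Adcyap1 reached at most 34 and 45 counts in a library.

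Libraries held 7511837 to 19166442 counts in genes, with a median of 12985662. Levels are given as CPM (counts in genes relative to the scaled library size, by edgeR's cpm), in the order of replicates 1, 2 and 3. A count of 0 over the 3 libraries of a group allows a level of up to 0.0617 to 0.106 CPM, which covers counting error only. Summed levels of 12 retinal progenitor markers were 980 to 2069 CPM over all libraries, with every marker detected except Fgf15 at cone day 21, rod day 21 and cone day 35. Summed levels of 12 photoreceptor markers were 627 to 1307 CPM in the day 0 libraries and 11.8 to 41.2 CPM in the day 35 libraries of both treatments. Cyp26b1, a retinoic acid-induced gene, had 1779 counts in rod primed and 9 in cone primed cells.

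In the RefSeq promoter table (build GRCm38.p6), 7 of the 8 genes had an entry and Penk had none. The cyclic AMP response element TGACGTCA, a palindrome bound by CREB-family factors, was found in the 250 bases before the RefSeq start of Scg2, Cartpt and Sst. This stretch was present in 1.56% of the 32536 distinct windows of that length in the table. The matches are printed because these 3 genes share the element and have different patterns over the groups, with the element in capitals and 11 bases on each side, 5′ to 3′ on the gene's strand.
Sst: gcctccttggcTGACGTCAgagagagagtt
Scg2: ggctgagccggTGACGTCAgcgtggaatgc
Cartpt: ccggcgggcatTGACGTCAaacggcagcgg
They lie on the minus strand at chr16:23890874-23890903, chr1:79440076-79440105 and chr13:99900777-99900806, and the element begins 48, 68 and 112 bases before the RefSeq start of Sst, Scg2 and Cartpt. The Scg2 stretch lies inside the gene span of the authors' files, which on this strand begins at 79440120, upstream of the RefSeq start. A match is a description of these letters and not of binding.

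Per kilobase of exon, the scale on which levels of different genes can be set side by side, Scg2 was the most abundant, with 93.1 ± 26.8 CPM per kb (SD, n = 3) at cone day 12. The highest group means of the other genes were 43.7 ± 39.3 for Sst at rod day 35, 24.5 ± 10.0 for Npy in untreated cells, 22.6 ± 11.7 for Cartpt at cone day 21 and 12.6 ± 1.30 for Gal in untreated cells. Penk reached 8.29 ± 2.26 at cone day 35, Adcyap1 0.551 ± 0.195 in untreated cells and Tac1 0.377 ± 0.205 at cone day 5. The genes thus had their highest means in different groups: 3 in untreated cells, 4 in cone induced cells and 1 in rod induced cells.

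**Figure D1:**
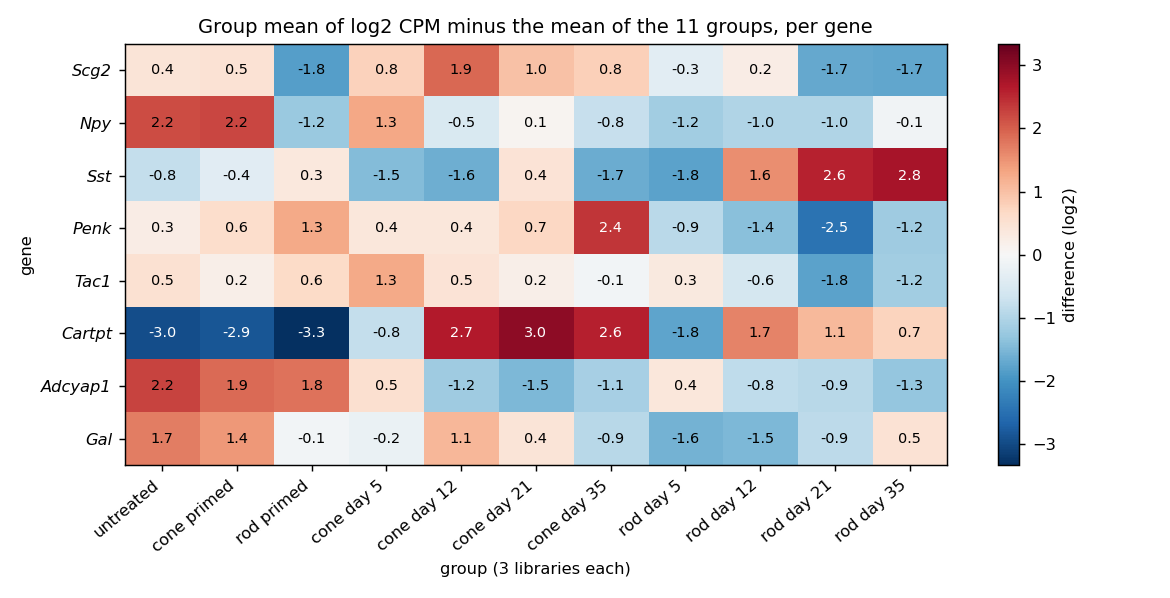
Rows are the 8 genes and columns the 11 groups of 3 libraries; each cell gives the group mean of log2 CPM minus the mean of the 11 groups for that gene. Cartpt runs from -3.3 in rod primed cells to 3.0 at cone day 21, Sst reaches 2.8 at rod day 35, and Scg2 is at -1.8 in rod primed cells and -1.7 at rod days 21 and 35.

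Between cone primed and untreated cells no gene was called, among the 8 or over all 18150 tested. Npy stays in these counts as a description, because its levels in both groups entered the comparisons that chose the genes. Compared with untreated cells, 0 of the 8 were called by edgeR, 0 had an unadjusted p under 0.05, and DESeq2 and voom also called 0. The background was 0% of all genes called, with 200 of 18150 at an unadjusted p under 0.05. For 0 of the 8 did the libraries of the groups not overlap, beside 5.17% of all genes, 2.35% higher and 2.83% lower in cone primed cells. The median log2 difference of the 8 genes was -0.05, beside 0 over all genes tested.

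Rod primed libraries were all lower than all untreated libraries for Npy, Gal and Scg2, and all higher for Penk. Over all genes, 16.1% were lower without overlap and 17.6% higher. Against cone primed cells, the same 3 genes were higher in every cone primed library than in every rod primed library, a pattern found for 14% of all genes. The 2 comparisons share the rod primed libraries. Amacrine markers were also lower in rod primed cells: all 16 were detected in each day 0 group, with sums of 928 to 1104 CPM in untreated, 901 to 1022 in cone primed and 488 to 607 in rod primed libraries. Other marker lists differed at this step too. Ganglion cell markers summed to 474 to 805 CPM in untreated, 397 to 1025 in cone primed and 209.5 to 466 in rod primed libraries, with Opn4 at 0 in untreated cells. Muller glia markers were higher in rod primed cells, at 1166 to 1477 CPM beside 502 to 591 in untreated and 510 to 654 in cone primed libraries. Progenitor markers were higher too, at 1648 to 2069 CPM beside 1249 to 1414 in untreated and 1224 to 1472 in cone primed libraries. Horizontal cell markers were lower, at 395 to 436 CPM beside 461 to 538.5 and 469 to 520. So were endothelium markers, at 292 to 308 CPM beside 319 to 375 and 330 to 366. Of these, Cdh5 was at 0 in untreated and rod primed cells and Emcn in cone and rod primed cells. The part of any of these lists in the peptide genes' differences was not tested.

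During induction at days 5, 12 and 21 the called genes were all on the cone side. At day 5 Npy, Penk and Scg2 were called higher, 3 of 8 beside a background of 3.48% of all genes called higher and 9.28% called in either direction. In 5 of 8 every cone library was higher than every rod library, beside 16.8% of all genes. At day 12 Penk, Gal and Scg2 were called higher, 3 of 8 beside 5.98%, or 10.1% in either direction. The same 3 were higher without overlap, beside 12.1%, and Sst was lower without overlap, beside 10.2%. At day 21 Penk, Tac1, Cartpt and Scg2 were called higher, 4 of 8 beside 5.86%, or 9% in either direction, and these 4 did not overlap, beside 14.5%. Over the mean of the 3 days, Penk, Tac1, Cartpt, Gal and Scg2 were called higher, 5 of 8 beside 10.6%, or 19.7% in either direction. None was called lower in cone cells in these 4 comparisons, where 5.8%, 4.12%, 3.14% and 9.09% of all genes were. At an unadjusted p under 0.05 the counts were 4, 4, 5 and 6. The median log2 difference of the 8 genes was 1.17, 0.85, 1.64 and 1.52, beside medians between -0.01 and 0.03 over all genes tested, and 1.40 for the mean of days with genes at the floor set to their bound. Of 15 amacrine markers tested, 4, 1, 4 and 5 were called higher in cone cells and 0, 1, 0 and 0 lower in the same 4 comparisons, with medians of 1.29, -0.10, 1.42 and 0.85, so that they were not on the cone side at day 12. The sums of the 16 markers were 630 to 822 CPM at cone and 397 to 541 at rod day 5, 191 to 370 and 214 to 550 at day 12, and 276 to 375 and 150 to 209 at day 21. Ptf1a was at 0 at cone days 12 and 21 and rod day 21, and Th at rod days 12 and 21. Of 7 microglia markers tested, 0, 2, 6 and 7 were called higher in cone cells and 0 lower. The sums of the 9 microglia markers were 6.32 to 14.8 CPM at cone and 1.36 to 10.6 at rod day 5, 7.11 to 53.1 and 2.14 to 14.5 at day 12, and 41.7 to 97.8 and 1.08 to 3.71 at day 21. They were 55.4 to 274 and 2.39 to 4.93 at day 35, with Tmem119 at 0 at rod days 5 and 12 and P2ry12 at rod day 5. The part of both lists in the peptide genes' differences was not tested.

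At day 35, Scg2, Penk, Tac1 and Cartpt had every cone library above every rod library, as did 16.3% of all genes. For Tac1 the lowest cone and the highest rod library both held 2 counts, at 0.171 and 0.162 CPM, so that library size alone parts them. Sst and Gal were lower in every cone library, where 11.6% of all genes were. No test is given for this day.

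Whether the cone minus rod difference changed over days 5, 12 and 21 was asked by an F test. It called 0 of the 8 genes with edgeR, beside 4.02% of all genes. An unadjusted p under 0.05 was found for 4 of them, Scg2, Penk, Tac1 and Npy, with adjusted p of 0.0818, 0.107, 0.145 and 0.175. DESeq2 and voom each called Scg2, with adjusted p of 0.0392 and 0.0396. Without rod day 12 replicate 1, edgeR called Npy (adjusted p 0.0182) and Tac1 (adjusted p 0.0370).

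Over time, changes of Npy from priming are left out of the calls, because its primed levels entered the comparisons that chose the genes. Between cone primed cells and cone day 35, Penk and Cartpt were called higher and Adcyap1 and Gal lower. Of all genes, 31.1% were called higher, 26.5% lower and 57.7% in all. These genes and Npy did not overlap between the groups, 2 higher and 3 lower, beside 34.4% and 30.3% of all genes, or 64.8% in all. In rod cells Sst is left out as well as Npy, because its day 35 level was among the values that chose the genes. Of the remaining genes, Cartpt was called higher and Penk, Tac1 and Adcyap1 lower, beside 29.4% and 26.2%, or 55.6% in all. Cartpt and Adcyap1 were thus called in the same direction in both treatments, and Penk in opposite directions. At day 5, with Npy again left out, only Gal was called by edgeR in cone cells, lower than in primed cells, beside 10.2% of all genes lower and 12.2% higher. Npy and Gal were lower without overlap, beside 21% of all genes, and Cartpt was higher without overlap, beside 23.5%. For Npy the estimate was -0.94 ± 0.68, and -0.96 with the compared groups fitted alone, given without a test. At day 5 in rod cells Penk and Gal were called lower and Scg2 higher, beside 8.79% and 8.76%. There 5 of the 8 did not overlap, 1 higher and 4 lower, beside 39.8% of all genes.

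**Figure D2:**
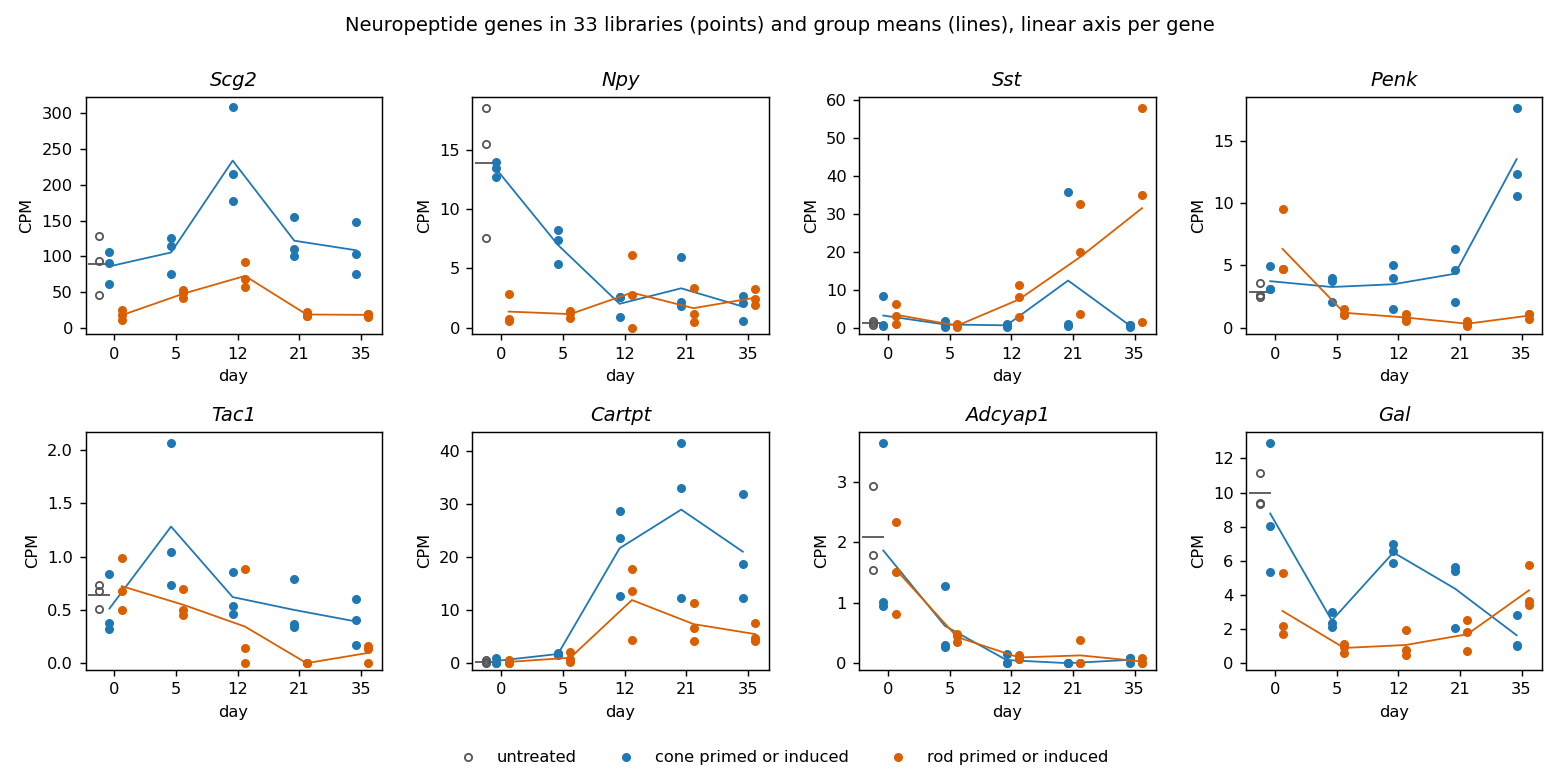
Each panel shows 1 gene, with CPM on a linear axis that starts just under 0 and the days, evenly spaced, on the horizontal axis; points are the 33 libraries and lines join group means of cone (blue) and rod (orange) cells, with untreated cells as open points and their mean as a dash. The 3 rod libraries of Scg2 lie below the 3 cone libraries at all 5 days, and Sst at cone day 21 has 1 library at 35.8 CPM and 2 near or below 1.05.

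Secretogranin II, the product of Scg2 (chr1:79434669-79440120), is a granin of dense-core vesicles and the precursor of secretoneurin. It had 45.3, 128 and 94.1 CPM in untreated cells, 60.9, 91.0 and 106 in cone primed and 17.4, 24.3 and 11.1 in rod primed cells. Rod priming thus left every library below every untreated and cone primed library, with a log2 difference from untreated of -2.35 ± 0.34 (SE). Cone libraries held 115, 126 and 75.7 CPM at day 5, 309, 215 and 178 at day 12, 155, 110 and 101 at day 21 and 103, 74.8 and 148 at day 35. Rod libraries held 41.3, 48.9 and 53.0, then 92.6, 57.4 and 67.7, then 22.8, 17.0 and 15.9, then 19.0, 15.7 and 19.4 CPM. The groups did not overlap on any day, and day 12 had the highest mean in both treatments.

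Cone exceeded rod for Scg2 by 1.14 ± 0.32 log2 units at day 5 (adjusted p 0.0210), 1.69 ± 0.32 at day 12 (adjusted p 7.72e-04) and 2.71 ± 0.34 at day 21 (adjusted p 5.98e-06). Over the mean of these days the difference was 1.85 ± 0.19 (adjusted p 4.06e-08), and at day 35 the estimate was 2.59 ± 0.34. The day 5 call was lost in 4 of 6 refits that left out 1 library: cone day 5 replicate 1 (adjusted p 0.0639) or replicate 2 (0.0856), and rod day 5 replicate 1 (0.110) or replicate 2 (0.0580). From rod priming to rod day 5 Scg2 rose by 1.45 ± 0.33 (adjusted p 0.00354), and at rod day 35 it was 0.04 ± 0.34 from the rod primed level (adjusted p 0.926).

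Neuropeptide Y, encoded by Npy (chr6:49822710-49829507), is an inhibitory peptide of a subset of amacrine cells. It had 15.5, 18.5 and 7.54 CPM in untreated cells and 12.7, 13.4 and 13.9 in cone primed cells. Rod primed libraries had 2.85, 0.705 and 0.539 CPM, which is 34 counts in all beside 510 in untreated and 400 in cone primed cells. The estimate was -3.43 ± 0.81 log2 units from untreated cells, and cone primed exceeded rod primed cells by 3.38 ± 0.81. Without rod primed replicate 1 these were -4.45 and 4.40.

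At day 5, Npy was at 8.22, 7.36 and 5.35 CPM in cone and 0.786, 1.29 and 1.39 in rod libraries, a difference of 2.55 ± 0.78 (adjusted p 0.0382). The groups did not overlap, but each of the 6 refits without 1 library lost the call. The adjusted p was then 0.0990, 0.0841 and 0.0512 without cone day 5 replicates 1, 2 and 3, and 0.153, 0.0948 and 0.0908 without rod day 5 replicates 1, 2 and 3. From day 12 on the 2 treatments overlapped. Cone libraries had 2.57, 2.56 and 0.928 CPM at day 12, 1.84, 5.99 and 2.15 at day 21 and 0.597, 2.66 and 2.10 at day 35. Rod libraries had 0, 6.14 and 2.74, then 0.463, 3.32 and 1.17, then 1.95, 2.43 and 3.23 CPM.

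The cone minus rod estimates of Npy were -0.58 ± 0.77 at day 12 and 1.03 ± 0.77 at day 21 (adjusted p 0.725 and 0.469). The mean of the 3 days was 1.00 ± 0.45 (adjusted p 0.122). It was called with voom (adjusted p 0.0499), and with edgeR without rod day 12 replicate 2 (adjusted p 0.0242) or rod day 21 replicate 2 (adjusted p 0.0484). In cone cells the estimate for Npy at day 35 was 2.90 ± 0.76 log2 units below the primed level. In rod cells it was 1.00 ± 0.84 above the primed level at day 35. Both are given without a test because the cone and rod primed levels entered the comparisons that chose the genes.

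Somatostatin, encoded by Sst (chr16:23889581-23890844), is an inhibitory peptide of sparse retinal neurons. Its libraries differed widely within several groups. Rod libraries had 2.98, 1.01 and 6.38 CPM at priming and 0.562, 0.214 and 0.903 at day 5. They then had 11.2, 8.19 and 2.96 at day 12, 20.0, 32.5 and 3.59 at day 21 and 58.0, 34.9 and 1.61 at day 35. Rod replicate 3 was the lowest at days 12, 21 and 35, and replicate numbers are not stated to link days.

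In cone libraries Sst had 0.755, 8.41 and 0.524 CPM at priming, 0.534, 0.243 and 1.86 at day 5 and 0.933, 0.776 and 0.232 at day 12. At day 21 it had 1.05, 35.8 and 0.518 and at day 35 0.853, 0.258 and 0.726 CPM. The value of 35.8 is 418 counts, beside 8 and 7 in the other cone day 21 libraries. Apart from that library and cone primed replicate 2, every cone library was below 2 CPM.

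Sst was lower in every cone than in every rod library at days 12 and 35, with estimates of -3.57 ± 1.40 at day 12 (adjusted p 0.112, not called) and -5.65 ± 1.40 at day 35. DESeq2 called the day 12 difference (adjusted p 0.0386). At day 21 the estimate was -0.57 ± 1.04 (adjusted p 0.809). Without cone day 21 replicate 2 it was -4.66 (adjusted p 0.0366), and the mean of days 5, 12 and 21 went from -1.16 ± 0.83 (adjusted p 0.369) to -2.53 (adjusted p 0.0212).

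From rod priming to rod day 35 the estimate for Sst was 3.16 ± 1.17 log2 units, given without a test, and rod day 35 replicate 3 lay inside the range of the primed libraries. The estimate was 2.33 without rod day 35 replicate 1 and 4.02 without rod primed replicate 3. Markers of ventral forebrain interneurons, which also make somatostatin, summed to 9.60 to 14.2 CPM at rod day 35 with 6 of 8 detected and Nkx2-1 and Pvalb at 0. At cone day 35 they summed to 3.61 to 5.81 CPM with 5 of 8 detected and Dlx5, Dlx6 and Pvalb at 0. At day 12, where every rod library had more Sst than every cone library, the sums were 7.14 to 8.21 CPM in rod cells with 3 of 8 detected and 5.26 to 13.1 in cone cells with all 8 detected. In untreated cells they were 6.80 to 14.0 CPM, with Dlx6 and Pvalb at 0. Their part in the Sst levels was not tested.

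Penk (chr4:4133531-4138819) encodes the precursor of the enkephalins, opioid peptides found in some amacrine cells. A gene on the opposite strand, A830012C17Rik, overlaps it and had 0 to 4 counts per library. Penk had 2.43, 2.67 and 3.6 CPM in untreated cells, 3.15, 4.93 and 3.14 in cone primed and 4.75, 4.74 and 9.52 in rod primed cells. It was the gene that lay higher in all rod primed than in all untreated libraries, by 1.12 ± 0.41 log2 units. It then had 1.01, 1.5 and 1.11 CPM at rod day 5, 1.14, 0.750 and 0.577 at day 12, 0.540, 0.309 and 0.130 at day 21 and 1.10, 0.728 and 1.10 at day 35.

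Cone libraries had 3.74, 2.07 and 4.01 CPM of Penk at day 5, 3.96, 5.05 and 1.47 at day 12 and 6.30, 2.06 and 4.66 at day 21. At day 35 they had 10.6, 12.4 and 17.7 CPM, above every other library of the series. Cone exceeded rod by 1.42 ± 0.45 at day 5 (adjusted p 0.0435), 2.07 ± 0.46 at day 12 (adjusted p 0.00399) and 3.71 ± 0.53 at day 21 (adjusted p 3.27e-05), with no overlap on any of these days. The estimate at day 35 was 3.78 ± 0.46, and that over the mean of the 3 earlier days was 2.40 ± 0.28 (adjusted p 3.95e-07).

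The day 5 call of Penk was lost with voom (adjusted p 0.0644) and without any 1 library other than cone day 5 replicate 2. The adjusted p was 0.121 and 0.133 without cone replicates 1 and 3, and 0.161, 0.0655 and 0.130 without rod replicates 1, 2 and 3. The day 12 call was lost when only the compared groups were fitted (adjusted p 0.12). Between priming and day 35 Penk rose by 1.84 ± 0.41 in cone cells (adjusted p 3.55e-04) and fell by 2.69 ± 0.45 in rod cells (adjusted p 1.55e-05). By day 5 it had fallen by 2.38 ± 0.45 in rod cells (adjusted p 5.07e-04), while the cone estimate was -0.20 ± 0.41 (adjusted p 0.766).

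Mesenchyme markers, 9 genes such as Col1a1 and Lum, had higher sums in every cone than in every rod library at days 5, 12 and 21. They summed to 28.4 to 91.2 CPM at cone and 7.65 to 21.7 at rod day 5, and to 429 to 562 and 55.5 to 107 at day 12. At day 21 the sums were 628 to 934 and 257 to 492, and at day 35 they were 725 to 4140 and 380 to 908. All 9 were detected in these groups except Dcn at cone day 5. Against rod cells, 3, 5 and 2 of the 9 were called higher at days 5, 12 and 21, and 1, 0 and 0 lower. Over the mean of these days 6 were called higher and 2 lower, beside 10.6% and 9.09% of all genes. In rod cells all 9 were called higher at day 35 than at priming, from sums of 8.66 to 27.3 CPM, while Penk fell. Their part in the Penk difference was not tested.

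Tac1 (chr6:7554879-7565834) encodes the precursor of substance P and neurokinin A, excitatory tachykinins. It was scarce, with 15 to 25 counts in each day 0 group. Cone libraries had 11, 34 and 18 counts at day 5, 4, 11 and 7 at day 12, 6, 4 and 5 at day 21 and 2, 7 and 5 at day 35. Rod libraries had 4, 7 and 10, then 0, 13 and 2, then 0 in all 3, then 0, 2 and 2 counts. At day 21 cone cells were therefore at least 6.28-fold higher than the level that 3 counts over the rod group would give (adjusted p 0.00975).

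Over the mean of days 5, 12 and 21, Tac1 was called higher in cone cells (adjusted p 0.00205), with a log2 difference of 1.56 when day 21 was set to its bound. Without rod day 12 replicate 2, which held 13 of the 15 rod counts that day, the fitted difference went from 2.54 to 3.24. Day 12 alone was not called (0.84 ± 0.72, adjusted p 0.549), but was called without that library (2.96, adjusted p 0.0376) and with voom (1.90, adjusted p 0.0135). From priming to day 35 Tac1 fell by 2.75 ± 0.87 in rod cells (adjusted p 0.00988), from 21 counts to 4. In cone cells the difference was -0.37 ± 0.76 (adjusted p 0.705), from 15 counts to 14.

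Cartpt (chr13:99898484-99900683) encodes the CART peptides, known in mouse retina from direction-selective ganglion cells. It was nearly absent at day 0, with 13, 15 and 8 counts in the untreated, cone primed and rod primed groups. Of these, 10, 13 and 7 counts came from 1 library each: untreated replicate 3, cone primed replicate 2 and rod primed replicate 3. At day 5 it had 1.74, 2.01 and 1.45 CPM in cone and 2.02, 0.286 and 0.764 in rod cells. Cone libraries then had 23.7, 12.6 and 28.7 CPM at day 12, 41.5, 33.0 and 12.4 at day 21 and 31.9, 12.4 and 18.7 at day 35. Rod libraries had 13.6, 4.30 and 17.7, then 6.64, 4.09 and 11.3, then 7.48, 4.77 and 4.20 CPM.

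Cartpt thus rose in both treatments. From priming to day 35 the rise was 5.41 ± 0.76 log2 units in cone cells (adjusted p 9.14e-07) and 4.25 ± 0.88 in rod cells (adjusted p 1.94e-04). Without cone primed replicate 2 and rod primed replicate 3 these were 7.40 and 6.33. Cone exceeded rod by 1.96 ± 0.55 at day 21 (adjusted p 0.0246), with no overlap, and the estimate at day 35 was 1.94 ± 0.56. The day 21 call was lost with voom (0.99, adjusted p 0.0713) and without cone day 21 replicate 1 or 2 (adjusted p 0.112 and 0.0726) or rod day 21 replicate 1 or 2 (adjusted p 0.0745 and 0.125). The mean of days 5, 12 and 21 was 1.24 ± 0.35 (adjusted p 0.0136), and 0.74 with voom (adjusted p 0.163). The 13 ganglion cell markers summed to 65.2 to 85.9 CPM at cone and 85.6 to 153 at rod day 21, with 1 called higher and 2 lower in cone cells and a median log2 difference of 0.65. At day 35 they summed to 93.8 to 158 and 87.4 to 176 CPM, with Pou4f2 and Pou4f3 at 0 in both treatments. From priming to day 35, 10 of the 13 were called lower and 2 higher in cone cells, with a median of -5.39. In rod cells 9 were lower and 2 higher, with a median of -4.30. Over all genes, 26.5% and 26.2% were called lower and 31.1% and 29.4% higher in cone and rod cells. At day 21, 5.86% of all genes were called higher and 3.14% lower in cone than in rod cells. The part of the ganglion cell markers in the Cartpt levels was not tested.

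Adcyap1 (chr17:93199422-93205485) encodes PACAP, a peptide of ganglion cells that contain melanopsin. It had 1.79, 1.53 and 2.92 CPM in untreated cells, 1.01, 3.64 and 0.943 in cone primed and 0.814, 1.51 and 2.33 in rod primed cells. It had 4, 5 and 22 counts at cone day 5 and 4, 5 and 7 at rod day 5. From day 12 on, the cone groups held 2, 0 and 2 counts in all and the rod groups 4, 5 and 1. Between priming and day 35 the ratio of primed over day 35 levels was 37.1 in cone cells (95% counting interval 9.85 to 313, adjusted p 2.20e-04) and 65.5 in rod cells (11.2 to 2641, adjusted p 1.98e-04). Cone primed replicate 2 held 45 of the 62 cone primed counts, and without it the fitted log2 difference went from -4.86 to -3.90 (adjusted p 0.00429). Without the only rod day 35 library with a count, replicate 1, it went from -5.48 to -7.32 (adjusted p 6.05e-04), a fitted value that depends on the prior count and is no bound. Cone and rod cells were not told apart at this depth at day 5 (0.53 ± 0.79, adjusted p 0.750) or later.

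Galanin, encoded by Gal (chr19:3409919-3414472), is an inhibitory peptide widespread in the nervous system. It had 9.34, 9.40 and 11.1 CPM in untreated cells, 8.05, 12.9 and 5.34 in cone primed and 2.17, 1.71 and 5.30 in rod primed cells. The rod primed estimate was -1.68 ± 0.47 log2 units from untreated cells, and -2.36 without rod primed replicate 3. Cone libraries had 2.14, 2.98 and 2.38 CPM at day 5, 7.00, 6.60 and 5.88 at day 12, 5.38, 5.65 and 2.07 at day 21 and 1.02, 2.83 and 1.05 at day 35. Rod libraries had 1.12, 0.929 and 0.625, then 0.5, 0.75 and 1.95, then 1.85, 0.695 and 2.54, then 3.65, 5.74 and 3.42 CPM. Cone libraries were all higher at days 5 and 12, overlapped at day 21 and were all lower at day 35.

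Cone exceeded rod for Gal by 2.60 ± 0.51 at day 12 (adjusted p 0.00123), which was 3.35 without rod day 12 replicate 3, 1.93 with voom (adjusted p 5.70e-04) and not called with only the compared groups fitted (adjusted p 0.0537). The differences at days 5 and 21, 1.51 ± 0.54 and 1.33 ± 0.49, were not called (adjusted p 0.0809 and 0.0947). DESeq2 called day 5 (adjusted p 0.0368), as did a fit of the compared groups only (adjusted p 0.0151). Without cone day 21 replicate 3, day 21 was 1.68 (adjusted p 0.0480). The mean of the 3 days was 1.81 ± 0.30 (adjusted p 6.04e-05), and the estimate at day 35 was -1.38 ± 0.50, and -2.04 without cone day 35 replicate 2.

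By day 5 Gal had fallen by 1.81 ± 0.47 in cone cells (adjusted p 0.00644) and by 1.82 ± 0.55 in rod cells (adjusted p 0.0224). Without cone primed replicate 2 the adjusted p in cone cells was 0.0662. In rod cells it was 0.231 without rod primed replicate 3, with an estimate of -1.13, and 0.0680 and 0.0924 without rod day 5 replicates 2 and 3. With voom it was 0.0762. At day 35 Gal was lower than at priming in cone cells by a log2 difference of -2.43 ± 0.50 (adjusted p 1.53e-04), which was -3.10 without cone day 35 replicate 2. In rod cells it was 0.45 ± 0.48 above the primed level (adjusted p 0.438).

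**Figure D3:**
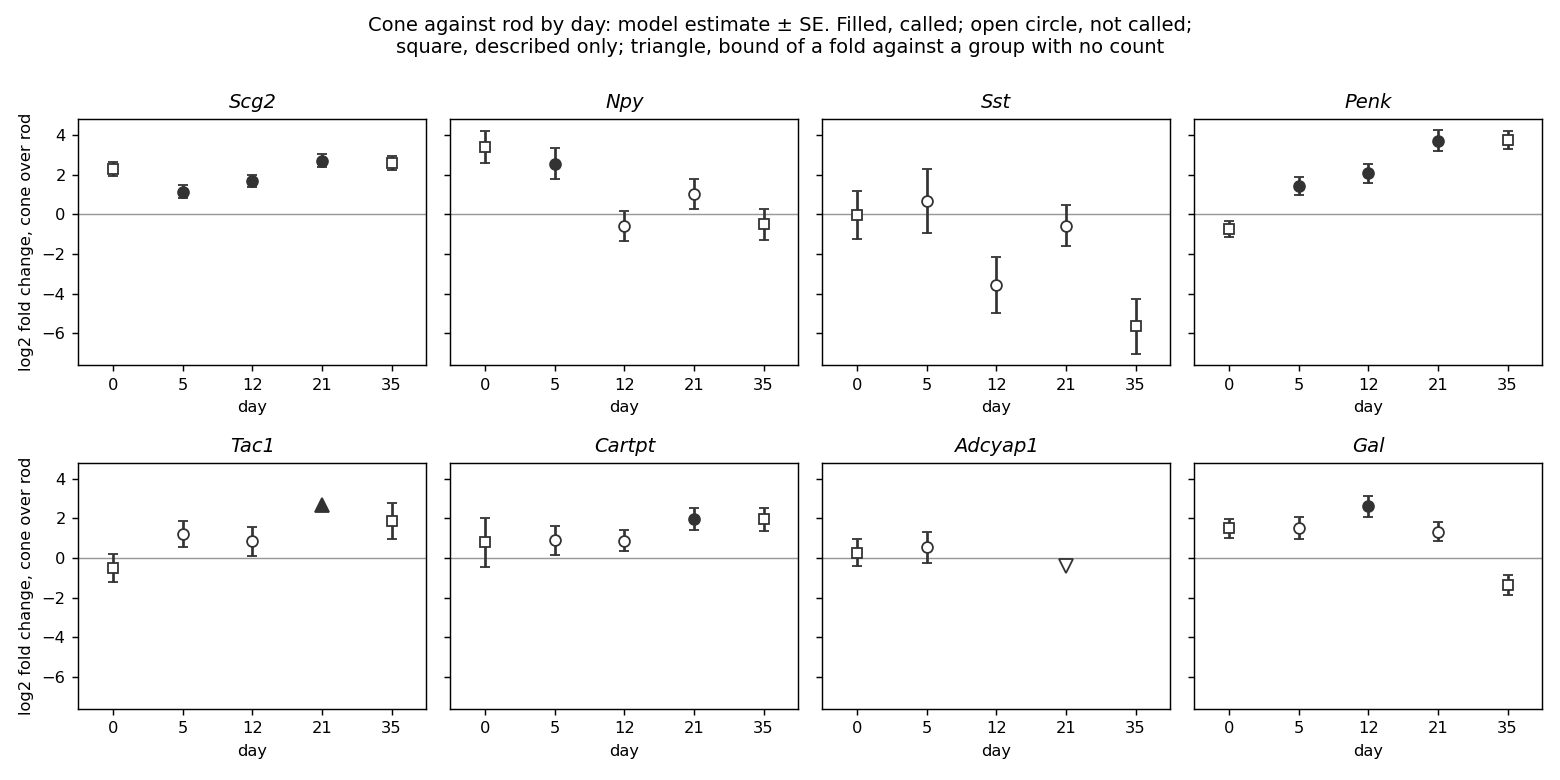
Each panel shows 1 gene, with the cone over rod log2 fold change (model estimate, bars are SE) by day, the days evenly spaced; filled circles passed the test, open circles did not, squares are the described comparisons at day 0 and day 35, and triangles are bounds where a group had no count. Scg2 lies between 1.14 and 2.71 on all 5 days, Penk goes from -0.76 at priming to 3.78 at day 35, and Sst goes to -5.65 at day 35; Adcyap1 has no value at days 12 and 35.

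In the order of group means, most neighbouring groups had overlapping libraries. Penk at cone day 35 and Scg2 at cone day 12 stood above all other groups without overlap with the next. Npy in cone primed cells did not overlap the next group, cone day 5, while the untreated libraries overlapped both. Gal at cone day 12 did not overlap the next group, cone day 21. For Cartpt all libraries from day 12 on lay above all earlier ones, and for Sst, Tac1 and Adcyap1 every neighbour overlapped.

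Among other genes whose mean log2 CPM was 1 or more, those most like each gene over the 11 group means are named as a description, with Pearson's r. They were Rgs8 for Scg2 (0.945), Fam110b for Npy (0.915), Tsc22d1 for Sst (0.880), Raly for Penk (0.914), Cerk for Tac1 (0.947), Slc17a8 for Cartpt (0.994), Glyr1 for Adcyap1 (0.992) and Dpysl2 for Gal (0.844). The next were Fam189a1 and Dnajc13, Syngr3 and Tshz3, Mlxip and Polr3g, Taf12 and Ddb1, Ndrg1 and Nefh, Cers6 and Sytl2, Acly and Rnf220, and Rbm38 and Cdr2, in the same order. Between the 8 genes themselves r ran from -0.951 for Cartpt and Adcyap1 to 0.742 for Npy and Gal. All these values rest on the same 33 libraries.

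Of 34 other neuropeptide precursors 9 were tested. Across days 5, 12 and 21, 2 were called higher and 0 lower in cone cells, with a median log2 difference of 0.30. In that comparison 10.6% of all genes were called higher and 9.09% lower, or 19.7% in all. Npvf, the precursor of RFamide-related peptides, was called higher in cone cells at day 12, with 23.0 ± 4.51 CPM beside 1.61 ± 0.921 in rod cells (SD, n = 3) and a difference of 3.83 ± 0.53 (adjusted p 1.66e-05). It had 1 count in each day 0 group and 1469 and 744 counts at cone and rod day 35. Pdyn, the precursor of the dynorphins, which are opioid peptides like the enkephalins, was higher in cone cells at day 21, with 10.4 ± 4.35 beside 0.689 ± 0.273 CPM and a difference of 3.89 ± 0.63 (adjusted p 1.63e-04). Between priming and day 35, 4 of the 9 rose and 2 fell in cone cells, and 3 rose and 1 fell in rod cells, beside 57.7% and 55.6% of all genes called.

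Of 21 receptors for the peptides 20 were measured and 7 tested. At day 5 Vipr2, a receptor for PACAP, was higher in cone cells, with 37.1 ± 4.37 beside 8.55 ± 1.59 CPM (2.11 ± 0.54, adjusted p 0.0128). Over the mean of days 5, 12 and 21, 1 of the 7 was higher in cone cells, Tacr1, the substance P receptor (0.86 ± 0.24, adjusted p 0.0119). None was called lower, while 10.6% of all genes were called higher and 9.09% lower. Tacr1 also rose from cone priming to day 35, from 2.75 ± 1.06 to 7.04 ± 1.02 CPM (1.37 ± 0.41, adjusted p 0.00605). Sstr2, a somatostatin receptor, fell in both treatments. It went from 273 to 4 counts in cone cells (-6.16 ± 0.68, adjusted p 1.64e-08) and from 258 to 12 in rod cells (-4.84 ± 0.59, adjusted p 1.08e-07). In all, 2 receptors rose and 3 fell in cone cells by day 35, and 0 rose and 3 fell in rod cells. Beside this, 57.7% and 55.6% of all genes were called in cone and rod cells.

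Of 12 genes for prohormone processing and amidation, 3 were called higher and 0 lower in cone than in rod cells over the mean of the 3 days. Their median was 0.27, and 10.6% of all genes were called higher and 9.09% lower. By day 35, 6 rose and 1 fell in each treatment, beside 57.7% and 55.6% of all genes called in cone and rod cells. Pam, the enzyme that amidates peptide ends, rose in cone cells from 68.2 ± 31.4 to 597 ± 71.6 CPM (3.12 ± 0.27, adjusted p 1.36e-10). Pcsk6, a proprotein convertase, rose in rod cells from 3.26 ± 0.651 to 29.5 ± 16.2 CPM (3.18 ± 0.33, adjusted p 8.58e-09). The gene that fell was Scg5, the chaperone of a convertase, with changes of -1.44 ± 0.34 in cone and -1.56 ± 0.34 in rod cells (adjusted p 6.66e-04 and 3.65e-04).

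Dense-core granule genes went down with time. Of 15 tested, 11 fell and 2 rose in cone cells by day 35, and 10 fell and 1 rose in rod cells, with medians of -1.70 and -2.25 beside 0.03 and 0.04 over all genes, of which 26.5% and 26.2% fell. Scg3, a granin that binds chromogranin A, went from 181 ± 26.1 to 8.45 ± 3.28 CPM in cone cells (-4.42 ± 0.42, adjusted p 1.07e-09) and from 105 ± 9.90 to 7.71 ± 2.44 in rod cells (-3.77 ± 0.41, adjusted p 1.89e-08). Scg2 differed from this pattern in its values, with day 35 estimates of 0.33 ± 0.31 in cone cells (adjusted p 0.378) and 0.04 ± 0.34 in rod cells from the primed level. Amacrine markers fell over the same interval, with 10 of 15 tested called lower in cone cells and 13 in rod cells. Their sums at day 35 were 220 to 328 CPM in cone cells, with Ptf1a at 0, and 214 to 275 in rod cells, with Ptf1a and Neurod2 at 0, and their part in the peptide genes' levels was not tested.

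Of 9 peptide-degrading enzymes tested, 3 were called higher in cone than in rod cells and 0 lower, over the mean of the 3 days. The shares of all genes were 10.6% higher and 9.09% lower. By day 35, 5 rose and 1 fell in cone cells and 5 rose and 3 fell in rod cells, beside 57.7% and 55.6% of all genes called. Mme, encoding neprilysin, which cleaves enkephalins and substance P, rose from 0.407 ± 0.0946 to 219 ± 47.0 CPM in cone cells (9.06 ± 0.71, adjusted p 3.09e-11) and from 4.64 ± 2.59 to 130 ± 31.9 in rod cells (4.78 ± 0.52, adjusted p 1.92e-08).

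Of 13 genes known to respond to cyclic AMP, 7 were called lower and 0 higher in cone cells across days 5, 12 and 21. Beside this, 9.09% of all genes were called lower and 10.6% higher. The median of the 13 was -0.47, beside 0.01 over all genes. Nr4a1, an immediate early transcription factor, was lower, with a difference of -1.06 ± 0.26 (adjusted p 0.00511). Over time 8 rose and 2 fell in cone cells and 9 rose and 0 fell in rod cells by day 35, where 31.1% and 29.4% of all genes rose. Fos had 347 counts in cone primed and 12150 in cone day 35 cells (4.87 ± 0.44, adjusted p 3.45e-10). Of the 3 genes with the element TGACGTCA printed above, Scg2 and Cartpt were called higher in cone cells over days 5, 12 and 21. Sst was not called, with a negative estimate. The part of the element or of cyclic AMP in these levels was not tested.

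**Figure D4:**
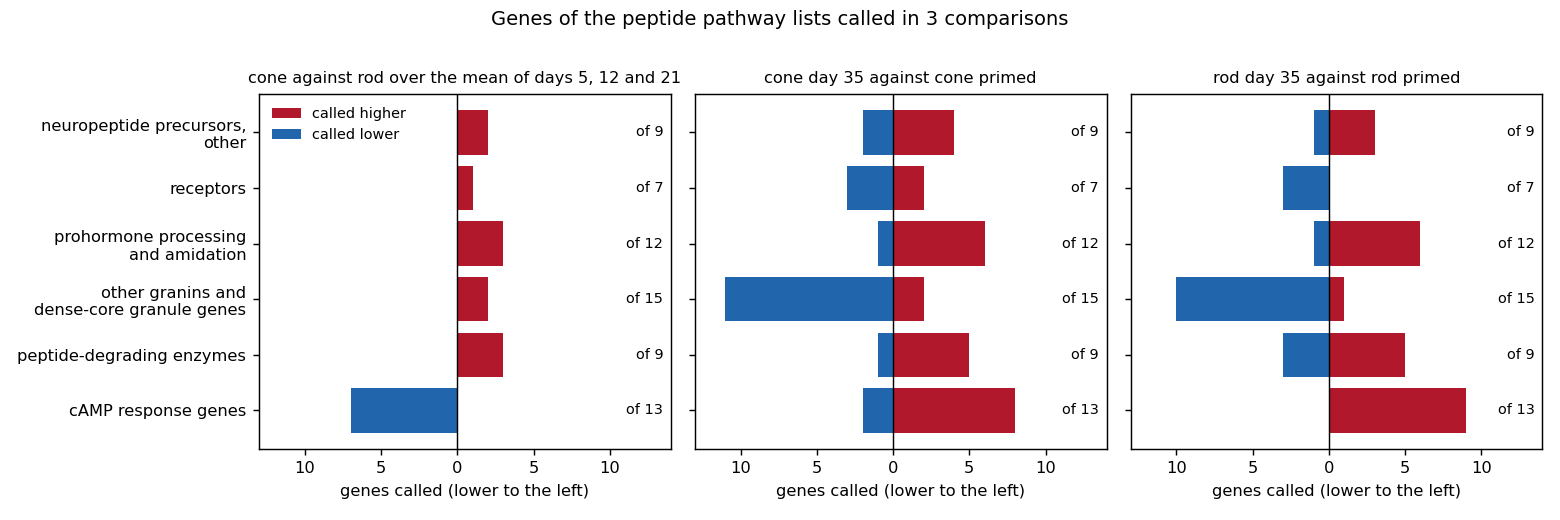
Bars give, for 6 gene lists of the peptide pathway, how many genes were called higher (red, to the right) and lower (blue, to the left) in 3 comparisons, with the number tested at the right edge of each panel. Of 15 dense-core granule genes 11 and 10 fell by day 35 in cone and rod cells, and of 13 cyclic AMP response genes 7 were lower in cone cells in the mean of the earlier days.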

How the data were processed

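RNA sequencing counts of 33 libraries were used. The authors deposited, per library, a table of unnormalised read counts and a table with TPM, per the file headers. The submitters' processing notes name HISAT2, StringTie, HTSeq and build GRCm38; versions, roles and the strand setting are not given in the sources used here. RNA and libraries were made with Takara low-input kits, per the labels' protocols. Genes received 26.9% to 34.9% of counted reads, and the rest were not used. Reads carry no molecular identifiers, so floors and intervals cover counting error only.

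Genes were filtered by filterByExpr (minimum count 10), which kept 18150 of 32488 genes with any count. After TMM scaling, a single quasi-likelihood model with a term per group was fitted to all 33 libraries (edgeR 4.0.16, limma 3.58.1, R 4.3.3), with Benjamini-Hochberg adjustment within each comparison. Errors on log2 fold changes are model SE. Folds against groups with no count used a floor of 3 counts over the group, and with 1 to 3 counts a count ratio with an exact 95% interval is given. Exon lengths came from GENCODE M21. Tables and figures used pandas 2.3.3, scipy 1.17.1, matplotlib 3.10.9 and numpy 2.4.6 under Python 3.11.15. Sequences came from RefSeq promoters (GRCm38.p6). No protein sequence was used here.

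The genes and lists were chosen with earlier results of these data known. Under the naming rule, the 8 genes are always named, with the 3 genes most like each (Pearson r over 11 group means, mean log2 CPM of at least 1). Of each pathway list, the called gene with the largest change in each direction (mean log2 CPM of at least 0) may be named in a comparison. Cyp26b1 is named as a check of the treatment labels, and single markers as defining genes. A few marker genes are not reported here and were left out of the summed levels.

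The deposited TPM did not follow the counts. They were 0 in 214 of 264 values of the 8 genes, beside 17 zero counts, and 0 for a value with 683 counts. Over all genes, 19.0% to 32.0% of those with at least 100 counts in a library had a TPM of 0, and Spearman's rho with the counts was 0.333 to 0.441 across genes. In every library the TPM of mt-Nd6, on the opposite strand from most mitochondrial genes, was 61.9 to 131 times that of mt-Co1, while mt-Co1 counts were 11.1 to 36.1 times those of mt-Nd6. The cause was not tested, and levels come from counts alone.

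On simulated data of 18150 genes (17454 tested, cone against rod at day 12), 96% of genes changed 4-fold and 32% of those changed 2-fold were recovered, with 3 false calls. The changed genes all had a mean over 1 CPM, and the spread was set from the mean count and not from each gene. These rates do not cover Tac1 and Adcyap1, with means of 0.515 and 0.628 CPM, or the wide spread of Sst. Alternatives were RLE size factors, 2 other filters, robust dispersion, DESeq2 1.42.0, voom with quality weights, the compared groups alone, a replicate block, TPM and leaving out each library. Libraries of a group differed by more than sampling noise (chi-square per gene at least 7.85). Libraries made separately from the same culture could differ so too, so this cannot tell whether any was a repeat. Each was treated as a replicate, as labelled.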

Additional observations from a re-analysis of the deposited data

Results flagged for a closer look

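Penk moved in opposite directions over the same interval in the 2 treatments. From priming to day 35 its log2 fold change was 1.84 in cone cells, with all 3 day 35 libraries above all 3 primed libraries, and -2.69 in rod cells, with all 3 below. The difference between these 2 changes was not tested.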

How the results depend on the processing

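Of 458 refits of the 29 called values that did not use TPM, 423 kept direction and call, 35 kept direction but lost the call, and 0 reversed. The 29 include Sst from rod priming to day 35 and Npy from cone priming to day 35, which the report gives without a test. Counts of called genes in this section likewise cover all 8 genes. With TPM as deposited (pseudocount 1 or 0.1) the number of the 8 genes called was 0 at days 5, 12 and 21 and in all 4 time comparisons, and 1 over the mean of days. Gal reversed there, at -0.089 and -0.149 over the mean of days, 0.265 and 1.022 at cone day 5 and 0.537 and 1.476 at cone day 35. Without overlap, TPM gave 0 genes for rod primed against untreated, 1 for cone against rod primed and 1 at day 35. With the compared groups alone, 1 gene was called at day 12, 2 at cone day 5 and 3 at rod day 35; a filter at a mean of 1 CPM, which no longer tested Tac1 and Adcyap1, gave 3 at rod day 35. DESeq2 and voom each called 2 at cone day 5 and 1 in the test of change over days. The cause of these shifts was not tested.

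Leaving out 1 library gave 0 to 1 genes at day 5, 0 to 2 at cone day 5, 0 to 2 in the test of change over days, and 3 to 5 without overlap for cone against rod primed. Replicate numbers were not used to pair the libraries. Same-numbered libraries correlated at -0.339 to 0.661, every pair passed 0.1 in 0 of 11 comparisons, and 8 of 33 libraries correlated best with their own number. With 3 libraries per group, these values cannot show whether a number marks a shared culture. With a replicate block, 2 genes were called at day 5 (Penk adjusted p 0.0551) and 4 at rod day 35, beside 5 without the block, which include Sst, described in the report without a test. RLE scaling moved the median of all genes by -0.016 to 0.036 log2 units. Depth limits Tac1 and Adcyap1 most.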
